A study of Mus musculus with 5 samples.

Results

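Acetylated-histone peaks were described at 10 genes of transcription factors that T cells induce or activate through the T cell receptor, which are Nfatc1, Nfatc2, Nfatc3, Nr4a1, Nr4a2, Nr4a3, Egr1, Egr2, Irf4 and Myc. They were taken as known families and not by a threshold on their peaks, and they are 10 of the 21911 protein-coding genes annotated on GRCm38. A peak was counted for a gene when it lay in the gene body or within 10 kb of it. ChIPseq of acetylated histones was done in memory CD8+ T cells (TM), which were made in culture from OT-I cells, activated with their ovalbumin peptide and then grown with IL-15. Lists of broad peaks were given for 5 libraries, 2 labelled wildtype (WT 1 and WT 2) and 3 labelled PDH_Mutant (TPdh-/- 1, 2 and 3), which is fewer per condition than the study states for ChIPseq.

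TPdh-/- mice carry a floxed Pdha1, the gene of the E1 alpha subunit of the pyruvate dehydrogenase complex, together with a Cre transgene driven by Cd4 sequences. This Cre is active in all T cells that have passed through the CD4+CD8+ stage in the thymus, so CD8+ cells delete the gene as well as CD4+ cells. The study used young adult mice of both sexes, and whether WT cells carried Cre, the floxed allele or neither is not given in the sources used here. All 5 libraries share the OT-I activation and the IL-15 culture. Labels name lysine 18 as the acetylated residue, while the methods describe the same antibody as raised against acetyllysine of histones, and no input control is named. Libraries are not tied to single mice, so a spread between them may be technical. A peak list of a whole culture cannot tell fewer cells with the mark from less of the mark per cell.

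When a T cell receptor is engaged, calcium enters the cell and activates the phosphatase calcineurin, which dephosphorylates NFAT proteins and lets them enter the nucleus. The zinc finger factors EGR1 and EGR2 and the orphan nuclear receptors NR4A1, NR4A2 and NR4A3 are made within a short time of that signal. IRF4 is made in proportion to its strength, and MYC drives the growth and the metabolic change that follow. Acetylation of histone tails marks active promoters and enhancers.

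The lists held 15962 and 8859 peaks in WT 1 and WT 2 and 4920, 5419 and 9418 in TPdh-/- 1, 2 and 3, so the groups overlapped in length. Read numbers are not in the lists and the depth is unknown. Of 7 T cell genes checked (Cd3d, Cd3e, Cd3g, Cd8a, Cd8b1, Cd2, Thy1), a promoter peak was present at 7, 4, 1, 3 and 4 in the same order, at Cd8b1 in all 5 libraries and at Cd8a in WT 1 alone. None of 4 myeloid genes (Lyz2, Csf1r, Cd14, Itgam) had a promoter peak in any list, nor had Alb, a liver gene. Within 10 kb, a peak was present at 7, 6, 1, 5 and 5 of the T cell genes. By that measure the myeloid genes had 2, 2, 2, 1 and 2, which were Cd14 in all 5 libraries and Itgam in all but TPdh-/- 2. Alb had none.

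Counted with their flanks, at least 7 of the 10 genes had a peak in any given library, though not the same genes in each. A peak within 10 kb was present at 10 genes in WT 1, 9 in WT 2, 7 in TPdh-/- 1, 7 in TPdh-/- 2 and 10 in TPdh-/- 3. Among all protein-coding genes the share was 54.0%, 36.4%, 23.2%, 24.6% and 39.2%, so the 10 genes were above the background of their own list in each of the 5 libraries. Some of these peaks lie at the start of a neighbour, Atg101 beside Nr4a1 and Ado beside Egr2. Counting only peaks nearest to a start of the gene itself left 10, 9, 5, 5 and 10 genes, and the gene body without flanks left 8, 7, 3, 3 and 7. Shares of all protein-coding genes were not computed under these narrower rules, so the comparison with the background holds for the 10 kb window. The median length of the 10 genes, 19139 bp, was near that of all protein-coding genes, 17433 bp. The mean count within 10 kb was 9.5 ± 0.707 genes (SD, n = 2) in WT, beside 8 ± 1.73 (SD, n = 3) in TPdh-/-, and the groups overlapped, since TPdh-/- 3 had as many as WT 1.

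A promoter peak, within 3000 bp of any annotated transcription start site of the gene, was less common. It was present at 9 and 7 of the 10 genes in WT 1 and WT 2 and at 3, 3 and 8 in TPdh-/- 1, 2 and 3, against 42.1%, 24.8%, 15.3%, 16.5% and 27.9% of all protein-coding genes. TPdh-/- 1 and 2, the shortest lists, stood below the other 3 libraries, and TPdh-/- 3 lay between the WT libraries. The means were 8 ± 1.41 (SD, n = 2) and 4.67 ± 2.89 (SD, n = 3). When each list was reduced to its 4920 strongest peaks, the length of the shortest, the promoter count became 3, 3, 3, 2 and 3 and the count within 10 kb became 6, 7, 7, 6 and 7. At equal list length the libraries thus differed by at most 1 gene in each count. The share of all protein-coding genes was not computed at equal length.

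**Figure D1:**
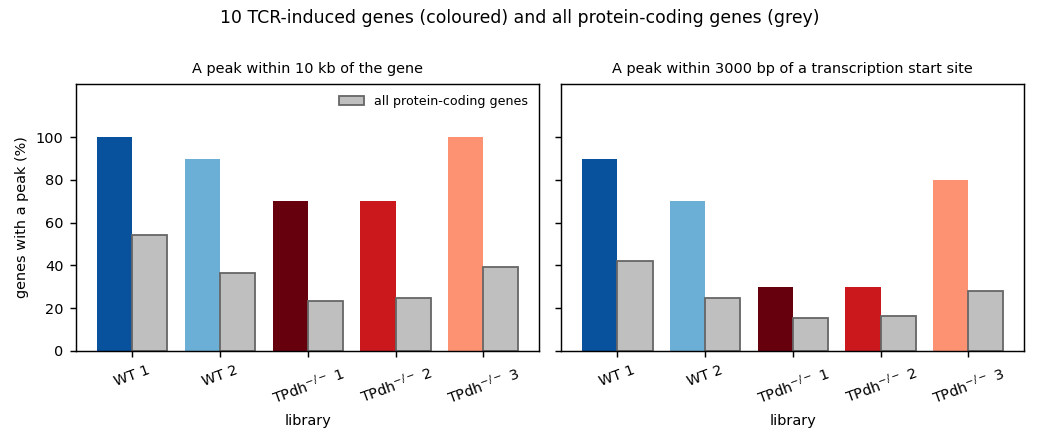
Share of genes (y axis, percent) with a peak in each library (x axis), coloured for the 10 TCR-induced genes and grey for all 21911 protein-coding genes; the left panel counts peaks within 10 kb of the gene and the right panel peaks within 3000 bp of a start site. The coloured bar is higher than the grey one in every library, and TPdh-/- 1 and 2 have the lowest coloured bars at start sites, at 30% each.

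The 10 genes held 71 peaks in all, 25 and 13 in WT and 7, 8 and 18 in TPdh-/-. They covered 33029 and 14916 bp in WT 1 and WT 2 and 7704, 7793 and 21170 bp in TPdh-/- 1, 2 and 3, with means of 23972 ± 12808 bp (SD, n = 2) and 12222 ± 7749 bp (SD, n = 3). The length at these genes followed the length of the whole list. Per Mb covered by the list it was 1635, 1508, 1589, 1411 and 1950 bp, and the means of 1571 ± 89.7 and 1650 ± 275 bp per Mb differed by less than the spread among the TPdh-/- libraries. Covered length was higher in both WT than in all 3 TPdh-/- libraries at 1 of the 10 genes, Myc, where 25.9% of the 12293 protein-coding genes with a peak showed that order. The opposite order was found at 0 of 10, against 0.0569%. For a single gene, the exact permutation test has 10 ways to divide 5 libraries into 2 and 3, and its two-sided p cannot fall below 0.2, so no gene could pass 0.05.

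**Figure D2:**
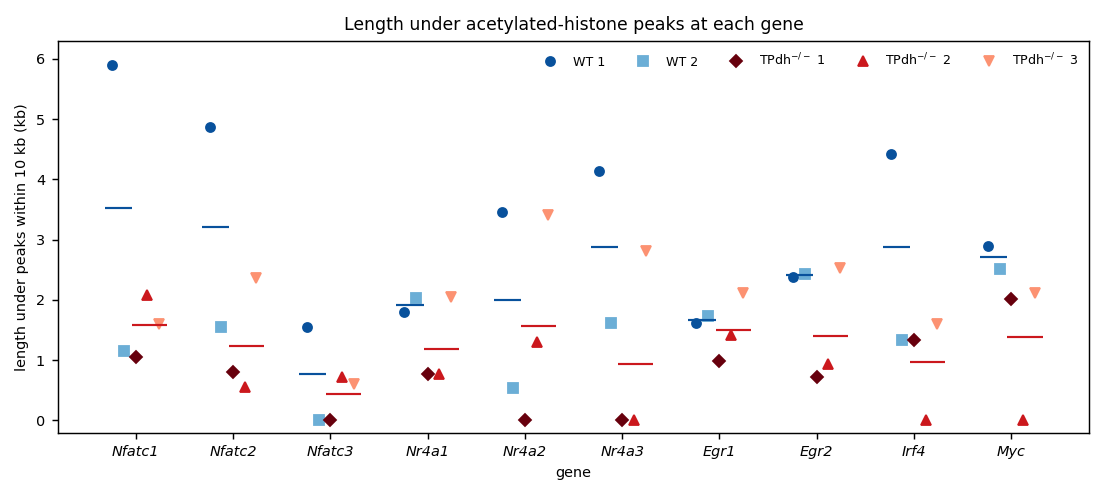
Length under peaks within 10 kb of each gene (y axis, kb) for the 10 genes (x axis), with 1 point per library and a horizontal line at the mean of each group. WT 1 is the highest point at 7 genes, and Myc is the only gene at which both WT points lie above all 3 TPdh-/- points.

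The 71 peaks merged into 27 regions. Of these, 5 were called in all 5 libraries, one each at Nfatc1, Nfatc2, Nr4a1, Egr1 and Egr2, and 4 of the 5 lay outside the gene body. WT 1 held 25 of the 27 regions. Peaks of WT without any of TPdh-/- were found in 7 regions, 6 of them in 1 WT library, and 2 regions were called in TPdh-/- 3 alone. A single region, inside Irf4, was called in WT 1 and WT 2 but in no TPdh-/- library. Shares of these patterns over all merged regions of the lists were not computed. WT 1 is also the longest list, so the counts are not read as a result about these genes.

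**Figure D3:**
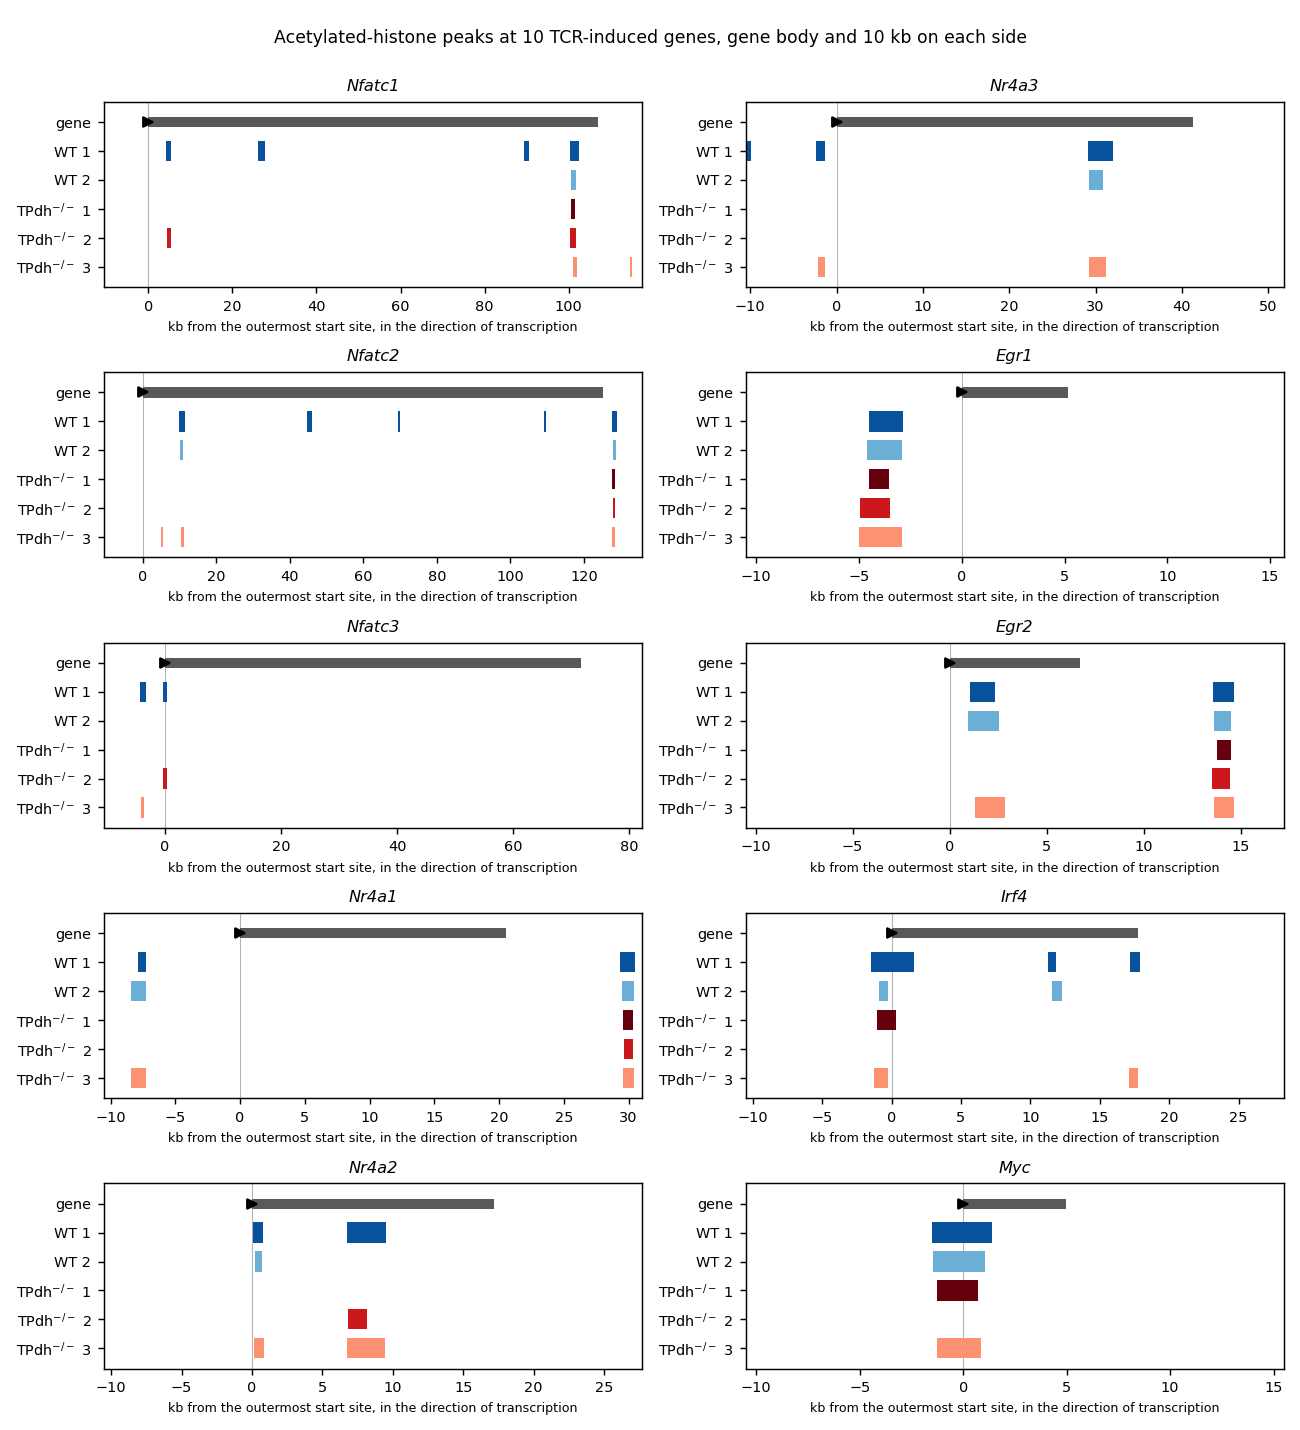
Peaks of the 5 libraries (coloured bars, 1 row per library) at each gene, plotted by distance in kb from the outermost start site in the direction of transcription, with the gene as the grey bar on top. The Egr1 region lies upstream of the gene and those shared by all libraries at Nfatc2, Nr4a1 and Egr2 lie past the gene end, whereas Myc peaks cover the start site.

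Within a list, peaks were ranked by −log10 q, and a percentile gives the share of the list's peaks that are weaker. The median percentile of the peaks at the 10 genes was 55.9, 62.8, 42.1, 65.3 and 43.7 in WT 1, WT 2 and TPdh-/- 1, 2 and 3, so these peaks stood near the middle of their lists. Of 71, 11 stood above the 90th percentile and 29 below the 50th. The strongest peak of each gene had a median percentile of 81.5, 71.7, 42.1, 74.4 and 74.3 over the genes with a peak, beside 70.6, 64.6, 60.5, 62.4 and 64.7 over all protein-coding genes with one. It was above that of all genes in 4 libraries and below it in TPdh-/- 1. In every library, however, the strongest peak counted for Nr4a1 lay at the start of Atg101 and that for Egr2 beside Ado. Other peaks of these genes in WT 1, WT 2 and TPdh-/- 3 stood lower, at 71.3, 23.0 and 57.8 for Nr4a1 and 72.4, 12.03 and 18.1 for Egr2. Medians without the peaks at neighbours were not computed, so the order is not read as a result about the genes themselves. By width, 11 of the 71 peaks were above the 90th percentile of their list, and 9 of these lay within 3000 bp of a start site of the gene. These are calls and not separate elements, since the Myc region is counted once for each library that called it. The share of all wide peaks that lie near a start was not computed, so the count is not read as a trait of these genes.

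**Figure D4:**
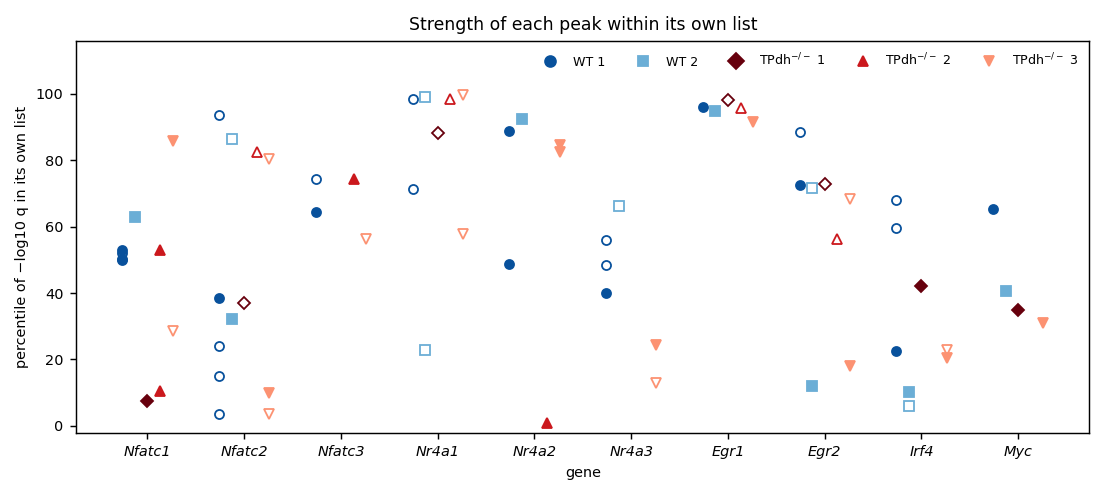
Percentile of −log10 q within its own list (y axis) of each of the 71 peaks, by gene (x axis) and library (colour and shape); filled symbols lie within 3000 bp of a start site of the gene and open ones farther away. Peaks at Egr1 and the open symbols near the top at Nr4a1 lie high in all 5 libraries, from 88.1 to 99.8, and Myc peaks lie between 31.0 and 65.2.

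The NFAT genes encode the calcineurin targets themselves. Their 3 genes held 13 of the 27 regions, with 11 and 3 peaks in WT and 2, 4 and 6 in TPdh-/-. Nfatc1, Nfatc2 and Nfatc3 span 106867, 125248 and 71698 bp and are the longest genes of the set. A longer gene has a wider window, and region counts were not adjusted for length. The gene with the most regions was Nfatc2, the main NFAT of resting T cells, on the minus strand of chromosome 2 from 168476410 to 168601657 (GRCm38). It was covered by peaks over 4877 and 1553 bp in WT 1 and WT 2, beside 807, 554 and 2361 bp in TPdh-/- 1, 2 and 3. TPdh-/- 3 lay between the WT libraries, and means of 3215 ± 2350 bp (SD, n = 2) and 1241 ± 978 bp (SD, n = 3) differed by less than the SD of WT (exact permutation test, two-sided, p = 0.4). WT 1 carried most of that difference, which was 312 bp without WT 1 and 3636 bp without WT 2.

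One element of Nfatc2 was called in all 5 libraries, between 2391 and 2646 bp past the end of the gene. Its −log10 q was 11.5 and 6.48 in WT and 2.16, 5.01 and 6.07 in TPdh-/-, which put it at percentiles 93.6 and 86.4 and 37.0, 82.4 and 80.2. Fold enrichment over the background of the library was 2.87 and 2.88 in WT and 2.50, 2.93 and 2.75 in TPdh-/-. TPdh-/- 1 had the lowest fold and the lowest percentile, and the other 4 libraries were close to each other in fold. Percentiles were higher in both WT than in all TPdh-/- libraries, which gives the smallest p possible (exact permutation test, two-sided, p = 0.2), while fold overlapped (p = 0.6 in the same exact test). Ranks overlapped too, at 1028 and 1208 in WT and 3102, 954 and 1862 in TPdh-/-, since a percentile also depends on the length of its list. How many other shared regions have this order of percentiles was not computed.

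The middle 300 bases of the stretch that all 5 lists share at this element are printed as the one Nfatc2 sequence under a peak in every library, read from GRCm38.p6 on the plus strand, 5′ to 3′, at chr2:168473339-168473638. It was chosen after its values were seen. The 8 motifs searched on both strands here and in the sequences that follow were TGACGTCA (the cAMP response element), TGAGTCA (an AP-1 site), GGAAA (the core of NFAT sites), GCGTGGGCG (an EGR site), AAAGGTCA (an NR4A monomer site), CACGTG (an E-box of MYC and MAX), GGGCGG (a GC box, which can share bases with the EGR site) and TATAAA. Of the 3002 stretches of this length shared by all lists, 1.87%, 4.83%, 65.7%, 0.50%, 1.17%, 5.40%, 33.7% and 8.46% hold them, in that order. None of the 8 is in this window, so it stands in lower case, with a GC content of 47.3% beside a median of 54.7% for such stretches.
Nfatc2, past the gene end: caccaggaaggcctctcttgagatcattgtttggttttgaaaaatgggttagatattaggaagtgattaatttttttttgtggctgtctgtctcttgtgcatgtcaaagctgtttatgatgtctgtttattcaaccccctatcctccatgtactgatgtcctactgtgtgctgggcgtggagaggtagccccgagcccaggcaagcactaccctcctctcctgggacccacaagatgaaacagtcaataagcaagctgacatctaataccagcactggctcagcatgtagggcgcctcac

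No library had a peak over the outermost start sites of Nfatc2. A start site farther into the gene was covered or flanked by a peak of 1421 bp in WT 1, 758 bp in WT 2 and 920 bp in TPdh-/- 3, with fold enrichment of 1.96, 2.23 and 1.98 and percentiles of 38.7, 32.2 and 9.83. It was in the weaker part of all 3 lists, and was not called in TPdh-/- 1 and 2. Another 3 regions in introns of Nfatc2 were called in WT 1 alone, at percentiles 15.0, 3.62 and 23.9, and 1 in TPdh-/- 3 alone, at percentile 3.46.

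Nfatc3, on the plus strand of chromosome 8 from 106058840 to 106130537, had the fewest libraries with a peak at its promoter among the NFAT genes. A peak covered its start in WT 1, as 620 bp at fold 1.75 and percentile 64.4, and in TPdh-/- 2, as 725 bp at fold 2.16 and percentile 74.4. A second region, 3332 and 3553 bp upstream, was called in WT 1 (930 bp, percentile 74.4) and TPdh-/- 3 (599 bp, percentile 56.4), and lies between this gene and the end of Dus2. WT 2 and TPdh-/- 1 had none, so covered length was 1550 and 0 bp in WT, beside 0, 725 and 599 bp in TPdh-/- (exact permutation test, two-sided, p = 0.8).

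Nfatc1 encodes the NFAT whose short isoform is itself induced by T cell receptor signals from the outermost promoter of the gene. It lies on the minus strand of chromosome 18 from 80606205 to 80713071, and peaks covered 5891 and 1161 bp of its surroundings in WT and 1056, 2084 and 1608 bp in TPdh-/-. WT 1 alone stood apart, with 4 peaks, and WT 2 lay among the TPdh-/- libraries (exact permutation test, two-sided, p = 0.6). Without WT 1, the difference (WT minus TPdh-/-) was -422 bp. No library had a peak over the outermost start. A start site farther into the gene was covered in WT 1, 1065 bp at fold 1.96 and percentile 53.0, and in TPdh-/- 2, 753 bp at fold 1.99 and percentile 10.5.

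The region of Nfatc1 called in all 5 libraries lay near the other end of the gene, in an intron and within 3000 bp of an internal start site. Its width was 2085 and 1161 bp in WT, beside 1056, 1331 and 946 bp in TPdh-/-, and fold enrichment was low in all, 1.65 and 1.91 against 1.84, 1.96 and 2.08. Percentiles were 50.0 and 62.8 in WT and 7.59, 53.1 and 85.9 in TPdh-/-, so the weakest and the strongest call both came from TPdh-/- libraries. Mean percentiles of 56.4 and 48.9 were closer to each other than the TPdh-/- libraries were among themselves (exact permutation test, two-sided, p = 1).

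The NR4A genes encode orphan nuclear receptors that limit T cell activation, and NR4A1 (Nur77) is widely used to report recent T cell receptor signals. Their 3 genes held 7 regions, with 7 and 4 peaks in WT and 1, 2 and 6 in TPdh-/-. Nr4a1, on the plus strand of chromosome 15 from 101254269 to 101274795, had no peak within 3000 bp of any of its 3 start sites in any library. A region 7235 to 7273 bp upstream of the gene was called in WT 1 (651 bp, fold 2.59, percentile 71.3), WT 2 (1111 bp, fold 2.31, percentile 23.0) and TPdh-/- 3 (1147 bp, fold 2.42, percentile 57.8). It was the one Nr4a1 region that was not nearest to another gene.

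The region shared by all libraries in the Nr4a1 window covers the start of a neighbour, Atg101, a gene of an autophagy initiation subunit, between 8823 and 9087 bp past the end of Nr4a1. By fold enrichment it was the strongest of the 27 regions in each library, and it stood at ranks 228 of 15962 and 93 of 8859 in WT and 585 of 4920, 78 of 5419 and 24 of 9418 in TPdh-/-. Fold enrichment was 3.89 and 4.22 in WT and 3.49, 4.41 and 4.94 in TPdh-/-, with means of 4.05 and 4.28 (exact permutation test, two-sided, p = 0.8). Both the lowest and the highest fold were in TPdh-/- libraries. Covered length at Nr4a1, 1797 and 2033 bp in WT, beside 772, 763 and 2041 bp in TPdh-/-, therefore counts a neighbour's promoter in every library (p = 0.6 in the same exact test).

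Nr4a2, on the minus strand of chromosome 2 from 57106830 to 57124003, had, by fold enrichment, the strongest peaks within 3000 bp of a start of their own gene in WT 1, WT 2 and TPdh-/- 3. They began 107 to 179 bp inside the gene and were called as 694 bp at fold 3.13 in WT 1, 547 bp at fold 3.29 in WT 2 and 670 bp at fold 2.88 in TPdh-/- 3, at percentiles 88.9, 92.3 and 84.7. TPdh-/- 1 and 2 had no peak there. A wider region in the gene body, over an internal start site in WT 1 and TPdh-/- 3 and 816 bp from it in TPdh-/- 2, was called as 2772 bp in WT 1, 1309 bp in TPdh-/- 2 and 2734 bp in TPdh-/- 3, at percentiles 48.7, 0.858 and 82.5. The calls of WT 1 and TPdh-/- 3 were among the widest of their lists, at width percentiles 97.3 and 98.5, and that of TPdh-/- 2 was, with a −log10 q of 1.15, among the weakest of its list.

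Covered length at Nr4a2 was 3466 and 547 bp in WT, beside 0, 1309 and 3404 bp in TPdh-/- (exact permutation test, two-sided, p = 0.8). TPdh-/- 3 was close to WT 1, and WT 2 was below 2 of the TPdh-/- libraries. The difference (WT minus TPdh-/-) turned to -1024 bp without WT 1 and to -350.0 bp without TPdh-/- 1.

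The 250 bases upstream of the RefSeq start of Nr4a2 are printed as the promoter itself, and the middle 300 bases shared by the 3 libraries inside the gene as the stretch that was called, with motifs in capitals (or their reverse complement where they lie on the other strand). The first is the minus strand of chr2:57124004-57124253 and the second the plus strand of chr2:57123401-57123700, both of GRCm38.p6 and 5′ to 3′. The Atg101-side stretch shared by all 5 lists, the plus strand of chr15:101283927-101284226, is printed beside them. No list covers a base of the Nr4a2 promoter, which has a GC content of 80.0% and 44 CpG, while the called stretch has 64.3% and 21. Counted from the 5′ end of the printed strand, on either strand, GGGCGG is at positions 70, 74, 181 and 243 of the promoter, GGAAA at 21 and TATAAA at 87, and these motifs are in 32.7%, 55.6% and 12.4% of the 32851 promoters of that length. CACGTG is at position 61 of the called stretch and GGAAA at 16 and 202. The Atg101-side stretch holds none of the 8 motifs. Both called stretches were chosen after their values were seen.
Nr4a2 promoter: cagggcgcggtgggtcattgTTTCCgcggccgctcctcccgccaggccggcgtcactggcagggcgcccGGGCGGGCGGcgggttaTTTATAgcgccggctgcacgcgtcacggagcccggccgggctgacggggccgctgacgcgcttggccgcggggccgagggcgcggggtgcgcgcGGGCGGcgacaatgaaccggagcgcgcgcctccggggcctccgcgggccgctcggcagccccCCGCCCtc
Nr4a2, inside the gene: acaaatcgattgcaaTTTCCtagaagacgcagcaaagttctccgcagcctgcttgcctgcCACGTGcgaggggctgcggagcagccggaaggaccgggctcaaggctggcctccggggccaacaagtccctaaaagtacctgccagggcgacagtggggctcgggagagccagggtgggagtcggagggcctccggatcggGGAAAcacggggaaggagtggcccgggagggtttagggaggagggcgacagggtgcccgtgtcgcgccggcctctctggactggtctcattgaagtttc
Atg101 side of Nr4a1: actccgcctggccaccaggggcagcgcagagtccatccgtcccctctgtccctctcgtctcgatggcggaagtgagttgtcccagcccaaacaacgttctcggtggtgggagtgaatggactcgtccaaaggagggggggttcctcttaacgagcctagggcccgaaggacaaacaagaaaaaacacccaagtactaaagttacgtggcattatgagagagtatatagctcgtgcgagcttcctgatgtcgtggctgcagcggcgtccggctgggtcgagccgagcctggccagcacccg

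Nr4a3, on the plus strand of chromosome 4 from 48045153 to 48086447, had no peak in TPdh-/- 1 or 2. A region in the gene body was called as 2909 bp in WT 1, 1609 bp in WT 2 and 1945 bp in TPdh-/- 3, with low fold enrichment of 1.83, 2.09 and 1.83 and percentiles of 48.6, 66.1 and 13.0. These peaks were wide rather than strong, and that of WT 1 stood at width percentile 98.0. On the promoter side, peaks ended 1327 bp upstream of the gene in WT 1 and 1292 bp in TPdh-/- 3, at percentiles 39.9 and 24.3, and a further one 9877 bp upstream was called in WT 1 alone. Covered length was 4135 and 1609 bp in WT, beside 0, 0 and 2807 bp in TPdh-/-, with means of 2872 ± 1786 bp (SD, n = 2) and 936 ± 1621 bp (SD, n = 3), and TPdh-/- 3 lay between the WT libraries (exact permutation test, two-sided, p = 0.4). The difference was 673 bp without WT 1 and 3199 bp without WT 2.

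The EGR genes encode zinc finger factors of the immediate early response, and EGR2 restrains T cell activation. Their 2 genes held 3 regions, with 2 of the 5 that all libraries share, and 3 and 3 peaks in WT and 2, 2 and 3 in TPdh-/-. Egr1 and Egr2 are short, at 5162 and 6714 bp, so their windows are narrow. Egr2 lies on the plus strand of chromosome 10 from 67535475 to 67542188. A region in the first part of the gene was called as 1309 bp in WT 1, 1568 bp in WT 2 and 1534 bp in TPdh-/- 3, at fold 2.74, 2.19 and 2.09 and percentiles 72.4, 12.03 and 18.1. It was among the stronger peaks in WT 1 only.

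The region of the Egr2 window called in all 5 libraries lay 6792 to 7066 bp past the gene and 25 to 299 bp upstream of a neighbour on the other strand, Ado, which encodes a thiol dioxygenase. Fold enrichment was 2.98 and 2.98 in WT and 3.06, 2.58 and 2.70 in TPdh-/-, at percentiles 88.6 and 71.7 and 72.8, 56.2 and 68.3. TPdh-/- 1 had the highest fold and a percentile between those of the WT libraries, so the groups overlapped (exact permutation test, two-sided, p = 0.4 for the percentile). Covered length at Egr2 was 2385 and 2433 bp in WT, beside 727, 934 and 2523 bp in TPdh-/-, with TPdh-/- 3 the highest of all (exact permutation test, two-sided, p = 0.6).

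The middle 300 bases that the 5 lists share there are printed as the Egr2-side sequence that is under a peak in every library, chosen after its values were seen, from the plus strand of GRCm38.p6 at chr10:67549434-67549733, 5′ to 3′. Capitals mark TGAGTCA on the minus strand at position 243 and GGGCGG at position 165. Its GC content is 57.0%, with 13 CpG.
Ado side of Egr2: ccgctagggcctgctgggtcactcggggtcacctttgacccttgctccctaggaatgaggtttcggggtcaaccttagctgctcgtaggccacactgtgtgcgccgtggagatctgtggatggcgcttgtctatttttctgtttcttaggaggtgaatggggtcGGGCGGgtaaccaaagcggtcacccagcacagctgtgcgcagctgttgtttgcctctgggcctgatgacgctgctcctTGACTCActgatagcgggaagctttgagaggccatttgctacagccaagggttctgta

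Egr1, the best known immediate early gene of the family, lies on the plus strand of chromosome 18 from 34859823 to 34864984. One region upstream of it was called in every library and was in the top 10% of each list, at ranks 622 and 455 in WT and 89, 234 and 796 in TPdh-/-, or percentiles 96.1 and 94.9 and 98.2, 95.7 and 91.6. The peaks were 1619 and 1729 bp wide in WT and 983, 1424 and 2111 bp in TPdh-/-, and fold enrichment was 2.30 and 2.32 against 2.71, 2.42 and 2.13. The groups overlapped in each measure, with TPdh-/- 1 the highest and TPdh-/- 3 the lowest in fold and percentile. Mean percentiles of 95.5 and 95.1 gave p = 1 and mean folds of 2.31 and 2.42 gave p = 0.8 (exact permutation test, two-sided). Among the regions called in all 5 libraries and nearest to their own gene, this one was most alike in percentile across the libraries.

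Its distance to the Egr1 start was 2877 and 2894 bp in WT, beside 3537, 3510 and 2899 bp in TPdh-/-. The 3000 bp limit therefore counts the same region as a promoter peak in WT 1, WT 2 and TPdh-/- 3 and not in the other 2 libraries. No library had a peak over the start of Egr1. Covered length was 1674 ± 77.8 bp (SD, n = 2) in WT, beside 1506 ± 568 bp (SD, n = 3) in TPdh-/- (exact permutation test, two-sided, p = 0.8).

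Irf4 and Myc together held 4 regions, with 4 and 3 peaks in WT and 2, 0 and 3 in TPdh-/-. TPdh-/- 2 had none at either gene. Myc, on the plus strand of chromosome 15 from 61985391 to 61990374, had a single region, which covered its start in all 4 libraries that called it. The peaks were 2891 and 2521 bp wide in WT and 2023 and 2120 bp in TPdh-/- 1 and 3, at width percentiles 97.9, 97.8, 96.4 and 94.8.

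Fold enrichment over Myc was low, 1.86 and 1.81 in WT and 1.98 and 1.78 in TPdh-/- 1 and 3, and percentiles were 65.2 and 40.7 against 34.9 and 31.0. The peak was thus wide and shallow in every library that had it. With 0 bp in TPdh-/- 2, covered length was 2706 ± 262 bp (SD, n = 2) in WT, beside 1381 ± 1197 bp (SD, n = 3) in TPdh-/-, the one gene whose groups did not overlap (exact permutation test, two-sided, p = 0.2, the smallest it allows). The difference (WT minus TPdh-/-) of 1325 bp was 634.5 bp without TPdh-/- 2, and in lists of equal length it turned to -674 bp. At that length the Myc peak was left only in TPdh-/- 1, the shortest list and the only one that was not cut.

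Irf4 lies on the plus strand of chromosome 13 from 30749226 to 30766976. Its promoter was called as 3050 bp in WT 1, 627 bp in WT 2, 1336 bp in TPdh-/- 1 and 952 bp in TPdh-/- 3, at fold 1.75, 1.93, 2.35 and 1.88 and percentiles 22.5, 10.1, 42.1 and 20.5. WT 1 had the widest call and TPdh-/- 1 the strongest, and none reached the middle of its list. The region inside the gene that both WT and no TPdh-/- library called was 577 bp in WT 1, at percentile 59.6, and 703 bp in WT 2, at percentile 5.91. The call of WT 2 was thus among the weakest of its list. Another region, over the last exon, was called in WT 1 (791 bp, percentile 68.0) and TPdh-/- 3 (644 bp, percentile 23.0). Covered length was 4418 and 1330 bp in WT, beside 1336, 0 and 1596 bp in TPdh-/- (exact permutation test, two-sided, p = 0.6). The difference was 353 bp without WT 1 and 3441 bp without WT 2.

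The 250 bases upstream of the RefSeq start of Irf4 and the middle 300 bases shared by the 4 libraries at its promoter are printed to show the stretch that only the wide calls reach and the stretch common to all of them. Both are on the plus strand of GRCm38.p6, 5′ to 3′, at chr13:30748983-30749232 and chr13:30748497-30748796, with motifs in capitals. The first lies wholly under a peak in WT 1 and TPdh-/- 1 and holds no base of a peak in the other 3 lists. It has a GC content of 63.6% with TATAAA at position 225 and GGGCGG at 147 and 200, and the second, which was chosen after its values were seen, has 43.3% with TGAGTCA at 118 and TATAAA at 193.
Irf4 promoter: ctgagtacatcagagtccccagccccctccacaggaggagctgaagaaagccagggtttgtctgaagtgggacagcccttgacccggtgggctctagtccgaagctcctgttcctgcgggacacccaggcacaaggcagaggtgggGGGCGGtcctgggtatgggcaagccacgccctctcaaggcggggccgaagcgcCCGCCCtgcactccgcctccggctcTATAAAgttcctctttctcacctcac
Irf4, stretch common to 4 libraries: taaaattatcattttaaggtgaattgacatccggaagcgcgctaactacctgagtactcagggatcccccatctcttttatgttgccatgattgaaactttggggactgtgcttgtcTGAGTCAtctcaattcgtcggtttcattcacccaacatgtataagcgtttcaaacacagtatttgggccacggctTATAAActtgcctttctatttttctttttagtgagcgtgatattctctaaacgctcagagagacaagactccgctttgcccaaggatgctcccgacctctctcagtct

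The rest of the pathway was described with a list of 37 genes. A peak within 10 kb was present at 33 and 26 of them in WT and at 17, 18 and 27 in TPdh-/-, and a promoter peak at 29 and 20 and at 15, 17 and 22, in both cases above the shares of all protein-coding genes given for these libraries. The count within 10 kb was not adjusted for gene length, and a longer gene has a wider window. Lengths in the list run from 2469 bp (Egr4) to 393925 bp (Itpr2), beside a median of 17433 bp for all protein-coding genes. No gene of the list had a promoter peak in WT 1 and WT 2 but in no TPdh-/- library, against 2.2% of all protein-coding genes. Covered length was higher in both WT than in all TPdh-/- libraries at 9 of the 33 genes with a peak, where 25.9% of all such genes showed it, and the opposite order was found at 0.

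Promoter peaks in all 5 libraries were found at 12 of these 37 genes and at 1 of the 10, Nfatc1, near an internal start, against 10.9% of all protein-coding genes. Of 14 calcium and calcineurin genes these were Stim1, the calcium sensor of the endoplasmic reticulum, Orai2, a channel subunit that it opens, Calm2, which encodes calmodulin, Ppp3ca and Ppp3cb, catalytic subunits of calcineurin, and Ppp3r1, its regulatory subunit. Ppp3r1 was covered over 1703 and 856 bp in WT, beside 1416, 1601 and 1483 bp in TPdh-/-, and Ppp3cb over 940 and 819 bp and 759, 795 and 787 bp. Ppp3cb was covered in a narrow range, while Ppp3ca ranged from 1365 to 5973 bp and Orai2 from 779 to 4789 bp.

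Among 7 regulators, Cabin1, an inhibitor of calcineurin, and Gsk3b and Csnk1a1, kinases that return NFAT to the cytoplasm, had a promoter peak in all 5 libraries. Rcan1, a feedback inhibitor of calcineurin that NFAT induces, and Homer2, a scaffold that competes with calcineurin for NFAT, had no peak within 10 kb in any. Of 5 other family members, Irf8, a relative of Irf4, had promoter peaks in all 5, while Nfatc4 and Egr4 had no peak in any. Max, the partner of MYC, and Mnt, a repressor that competes for it, had promoter peaks in all 5 libraries, and of the 7 genes in that list 7, 6, 4, 3 and 6 had a peak within 10 kb. The EGR corepressors Nab1 and Nab2 had promoter peaks in 2, 1, 0, 0 and 2 of 2, and Tox and Tox2, which NFAT induces in exhausted cells, had a peak within 10 kb in 2, 1, 0, 1 and 1 of 2.

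**Figure D5:**
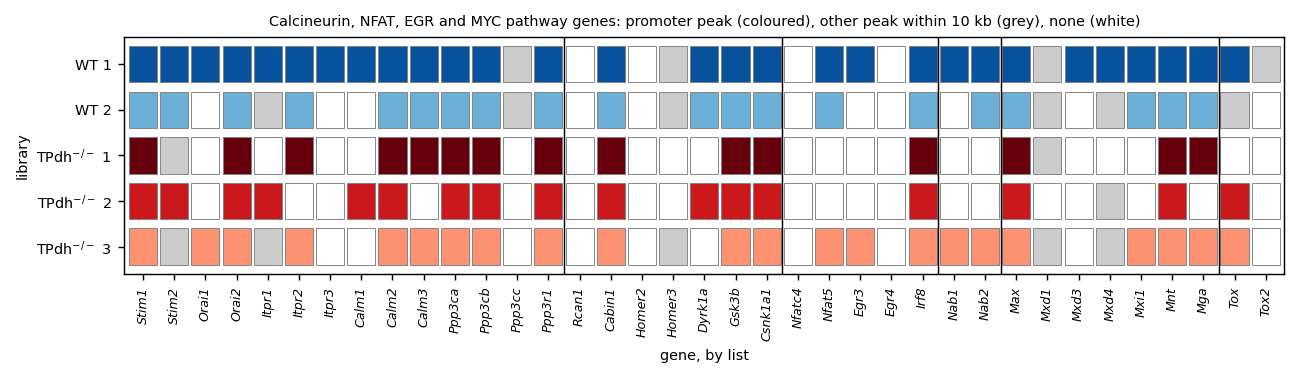
Peaks at the 37 other genes of the pathway (x axis, grouped by list between vertical lines) in each library (rows), coloured for a promoter peak, grey for another peak within 10 kb and white for none. The columns coloured in all rows are the 12 genes with a promoter peak in every library, and 4 columns are white in all rows. The Stim2 column has no white row but is grey in some.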

How the data were processed

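ChIPseq peak lists of 5 libraries were analysed, grouped by the labels as 2 WT and 3 TPdh-/-. The authors kept uniquely mapping reads on GRCm38/mm10, removed blacklisted regions and called broad peaks, 1 list per library, and the submitters' processing notes name BWA 0.7.17, SAMtools 1.15.1 and MACS2 2.2.6. The deposited lists give each peak's fold enrichment, a ratio on a linear scale, and its −log10 p and −log10 q. The smallest −log10 q was 1.00 to 1.03. DiffBind starts from reads, so the authors' differential analysis was not repeated.

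Peaks were placed by GENCODE M21 and counted from an overlap of 1 bp in Python 3.11.15 (pandas 2.3.3, numpy 2.4.6, scipy 1.17.1). Covered length was compared by exact permutation tests over libraries, two-sided as double the smaller one-sided p, and the script was tested on simulated data. Sequences came from RefSeq on GRCm38.p6; 7 of the 10 genes are in its promoter table. Promoters off chromosome 18 where 4 or more libraries had a peak were selected (Nr4a2, Irf4 and Myc). Of the pathway list, genes with promoter peaks in all libraries, in WT alone, or with no peak were named; Nab1, Nab2, Tox and Tox2 were added after their values were seen. The genes, lists and tests were chosen with earlier results of these data known. Alternatives were equal list lengths, a −log10 q limit of 2 or 5, other windows, another overlap, the nearest start, 1000 bp promoters, scaling to the list, a replicate block and leaving out each library, the last of these for non-overlapping genes chosen after seeing the data. One further marker list that was checked is not reported here.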

Additional observations from a re-analysis of the deposited data

How the results depend on the processing

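The WT minus TPdh-/- difference was 1.5 genes with a peak within 10 kb, 3.33 genes with a promoter peak and 1.03 in log2 covered length at the 10 genes. In lists of equal length the first turned to -0.167, the second shrank to 0.333 and the third turned to -0.0169. Covered length per length of the list gave -0.0588. The first was 3.17 with no flanks and 3.17 with 3 kb. All other alternatives run kept the direction of these values and moved them by less than the pooled SD between libraries. Leaving out each library gave 1 to 2.5 genes, 2.33 to 5 genes and 0.46 (without WT 1) to 1.61 (without WT 2), and the replicate block, for numbers that the labels do not say pair the libraries, gave 2.5, 5 and 1.52. The count of genes whose groups do not overlap, 1, became 3 at −log10 q of at least 2, 0 in lists of equal length and when scaled to the list, and 2 with no flanks, 3 kb or 50 kb. It ranged from 1 to 7 when libraries were left out, 7 without WT 2 (beside 88.6% of protein-coding genes with a peak) and 6 without TPdh-/- 3 (50.6%). For the other limits, windows and list lengths the share of all protein-coding genes was not computed, so those counts have no background beside them. Of 80 values for single genes, 68 kept their sign, 1 became 0 (Nr4a3 at −log10 q of at least 5) and 11 turned. In bp the last were Nfatc1 (-422 without WT 1, in a range to 4308 without WT 2, -782 at equal length, -315 at −log10 q of at least 5), Nfatc3 (-441 without WT 1 to 1109 without WT 2), Nr4a2 (-1024 without WT 1, -350.0 without TPdh-/- 1 and up to 1895 without WT 2, -514 at equal length and at −log10 q of at least 5), Egr1 (-93.5 without TPdh-/- 1 to 470.5 without TPdh-/- 3), Irf4 (-445 at equal length) and Myc (-674 at equal length). At equal length, Irf4 and Myc kept a peak in TPdh-/- 1 alone, the list that was not cut. What sets the length of each list was not tested, since the lists hold no read numbers.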
